A study of Mus musculus with 6 samples.

Results

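The 6 genes described here carry dietary vitamin A through the small intestinal epithelium: Rbp2, Bco1, Lrat, Isx, Aldh1a1 and Retsat. They were taken by symbol, as genes of vitamin A uptake and conversion, and no expression value enters this rule, although earlier results of these data were known when it was set. All 6 stood on a row of the deposited table that could be assigned to them, out of 22700 rows in all.

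RNA from the mucosa of the middle small intestine was sequenced in C57BL/6 mice on a standard pellet diet, 3 alk-SMase knockout (KO, libraries K79S, K82S and K86S) and 3 wild type (WT, libraries W83S, W89S and W90S). Each mouse gave 1 library. Alk-SMase is the intestinal alkaline sphingomyelinase encoded by Enpp7, an enzyme of the brush border that splits dietary sphingomyelin. In the KO line exon 2 of Enpp7 was deleted with Cre and loxP, which shifts the reading frame, and the driver of Cre and the age and sex of the mice are not given in the sources used here. The comparison of KO with WT asks which transcripts differ when this enzyme is missing.

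Provitamin A carotenoids and retinyl esters from the diet both end as retinol in the enterocyte. BCO1 cleaves beta-carotene to retinal, RBP2 (CRBP2) holds retinal and retinol in the cytosol, and LRAT esterifies retinol so that it can leave in chylomicrons. A smaller part is oxidised to retinoic acid, by ALDH1A1 among others, and retinoic acid acts through nuclear receptors that induce Isx, a homeodomain repressor of Bco1 and of the carotenoid transporter gene Scarb1.

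Values are FPKM, read numbers scaled to gene length and to the mapped fragments of the library, which allow levels to be set side by side between genes. The identifiers of the deposited table stood beside the values of other genes and were first moved back to their own rows by rank, so each named value rests on that step. No read counts per gene stand behind the FPKM, which leaves the depth of each value unknown. The paper lists mapped reads per library, fewest in K86S and most in W83S. The columns summed to between 393152 FPKM (K79S) and 495362 FPKM (W89S), with 20061 to 21679 rows above 0. Each KO column summed lower (393152 to 465901 FPKM) than each WT column (473383 to 495362 FPKM), and rescaling to an equal sum changed the sign of the Bco1 and Aldh1a1 differences and separated the groups for Lrat.

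Some libraries stood apart from the others. The 6 placed gastric markers summed to 25938 FPKM in W83S and to at most 2.61 FPKM elsewhere. The Y-linked Eif2s3y was listed at 0 in K79S and had 5.69 to 8.16 FPKM in the other libraries. Ddx3y, the other placed Y-linked gene, had 0.0279 FPKM in K79S and 2.93 to 4.01 FPKM in the others. K79S thus differed from the other KO and all WT libraries in both, and the part of sex in the differences between libraries was not tested. K82S and W89S had the lowest sums of 6 proximal small intestinal markers, 1133 and 1568 FPKM against 2217 to 6033 FPKM in the others. They also had the highest sums of 4 placed distal markers, 2523 and 2535 FPKM against 1305 to 1795 FPKM. Fabp1 made up most of each proximal sum, and Guca2a with Muc13 most of each distal sum. In W89S Guca2a was highest (1880 FPKM) and Muc13 lowest (586.5 FPKM) of all libraries. The 10 enterocyte markers summed to between 11332 FPKM (W83S) and 18897.5 FPKM (K79S). In such bulk tissue, fewer cells of a type and less RNA per cell cannot be told apart. Enpp7 itself had 605 (K79S), 129 (K82S) and 669.7 FPKM (K86S) among KO mice, and 406 (W83S), 667 (W89S) and 495 FPKM (W90S) among WT mice, values of the whole gene that do not test the loss of exon 2.

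Rbp2 (ENSMUSG00000032454.9, chromosome 9 from 98486115 to 98509781 on the plus strand in mm10, with positions of genes from GENCODE M21 throughout) encodes the cellular retinol-binding protein of the enterocyte, and was by far the most abundant member. It had 1871 (K79S), 1095 (K82S) and 3467 FPKM (K86S) among KO mice, and 2957 (W83S), 1627 (W89S) and 3246 FPKM (W90S) among WT mice. K86S was thus the highest and K82S the lowest of all 6 libraries, so the WT values lay inside the KO range. Rbp2 made up 0.235% to 0.823% of the summed FPKM of a library and ranked between 11 and 61 among its rows. The libraries gave a KO mean of 2144 ± 1210 and a WT mean of 2610 ± 864 FPKM (SD, n = 3). The log2 fold change, KO minus WT on the log2(FPKM + 1) scale, was -0.38 with a 95% interval from -1.52 to 0.76 (limma, adjusted p = 0.755). On this scale the change of a gene with few FPKM, such as Lrat, is understated.

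Bco1 (ENSMUSG00000031845.15, chromosome 8 from 117095854 to 117133720, plus strand) encodes the oxygenase that cleaves beta-carotene at its centre. Its FPKM was 12.6 (K79S), 9.91 (K82S) and 42.4 (K86S) among KO mice, and 20.5 (W83S), 22.0 (W89S) and 16.8 (W90S) among WT mice. The KO libraries held both the lowest values and the highest, while the 3 WT libraries were close to each other. These values had a KO mean of 21.6 ± 18.0 and a WT mean of 19.8 ± 2.69 FPKM (SD, n = 3), a log2 fold change of -0.15 with an interval from -1.35 to 1.05 (limma, adjusted p = 0.915). K86S decided this mean: without it both KO libraries lay below all WT libraries and the log2 fold change was -0.76, short of the threshold (limma, adjusted p = 0.568, and 0.568 to 0.987 over all alternatives).

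The sequences just before the start sites of Rbp2 and Bco1 are shown because these were the members that held the letters AGGTCA, a half-site read by retinoid X receptors and their partners, within 250 bases upstream of a RefSeq start. Both are printed from 5′ to 3′ on the plus strand of GRCm38.p6 (RefSeq), and end 1 base before the start. The capitals mark TGACCTTTG, which contains AGGTCA in reverse.

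Rbp2, chr9:98490417-98490536: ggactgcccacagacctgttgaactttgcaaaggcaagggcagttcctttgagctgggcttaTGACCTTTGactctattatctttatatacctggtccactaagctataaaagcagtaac

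Bco1, chr8:117095745-117095864: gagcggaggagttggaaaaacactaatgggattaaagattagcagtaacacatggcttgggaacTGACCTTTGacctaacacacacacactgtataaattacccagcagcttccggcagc

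TGACCTTTG began 58 bases before the start in Rbp2 and 56 bases before it in Bco1, and on either strand it was present in 0.426% of 32851 upstream windows of the same length. In Bco1 it runs into a second TGACCT, which makes a direct repeat of the half-site with 1 base between its copies. That repeat, TGACCT with any base before a second copy, was found on either strand in 11 of the 32851 windows, and AGGTCA alone in 14%. Lrat, Isx and Retsat, with 1 window each, and Aldh1a1, with 2, held no AGGTCA on either strand. These are matches of letters, chosen after the windows had been read, and no binding was measured. The RefSeq start of Rbp2 at 98490537 lies inside the longer gene given by GENCODE M21.

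Isx (ENSMUSG00000031621.9, chromosome 8 from 74873173 to 74893506, plus strand) encodes the intestine-specific homeobox repressor. It had 42.4 (K79S), 55.3 (K82S) and 27.6 FPKM (K86S) among KO mice, and 34.9 (W83S), 39.8 (W89S) and 40.0 FPKM (W90S) among WT mice. Here K82S was the highest library and K86S the lowest, the reverse of Rbp2 and Bco1, and the WT libraries again lay between them. This made a KO mean of 41.8 ± 13.8 and a WT mean of 38.3 ± 2.89 FPKM (SD, n = 3), with a log2 fold change of 0.07 and an interval from -0.55 to 0.70 (limma, adjusted p = 0.921). Without K86S both KO libraries lay above all WT libraries, at a log2 fold change of 0.34 (limma, adjusted p = 0.57, and 0.57 to 0.997 over all alternatives).

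Bco1 and Isx ran in nearly opposite order across the mice. The ratio of Isx to Bco1 FPKM was 3.37 (K79S), 5.58 (K82S) and 0.652 (K86S) among KO mice, and 1.71 (W83S), 1.81 (W89S) and 2.38 (W90S) among WT mice. The highest ratio was thus 8.56 times the lowest, and both extremes were KO mice. Over the 6 libraries Pearson's r of log2(FPKM + 1) was -0.94 (exact permutation test, p = 0.00833) and Spearman's rho was -0.94 (exact permutation test, p = 0.0167). Adjusted over the 15 member pairs, these became p = 0.0625 and p = 0.125 (exact permutation tests with Benjamini-Hochberg adjustment). Without K82S and K86S, the libraries farthest from the median of Bco1, r was -0.67 over 4 libraries, so the relation rests in part on these mice. Within a genotype, 3 libraries are too few for a correlation. The opposite order was not particular to Bco1: Isx had r of -0.85 with Rbp2, -0.80 with Aldh1a1 and -0.77 with Retsat, but 0.10 with Lrat. Repression of Bco1 by ISX was not tested.

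**Figure D1:**
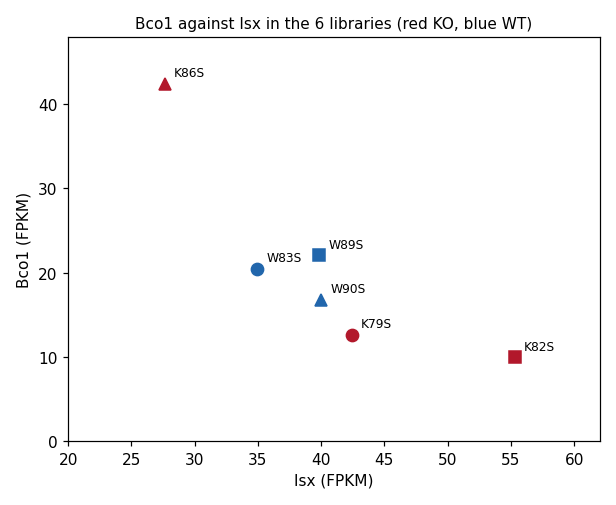
Bco1 FPKM (vertical axis) against Isx FPKM (horizontal axis), 1 point per library, with KO in red and WT in blue. K86S has the lowest Isx (27.6) and the highest Bco1 (42.4), K82S has the highest Isx (55.3) and the lowest Bco1 (9.91), and the 3 WT libraries lie between them.

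Lrat (ENSMUSG00000028003.6, chromosome 3 from 82892579 to 82903973, minus strand), the acyltransferase that makes retinyl esters, was weakly expressed and varied least of the members. Its FPKM was 3.44 (K79S), 4.10 (K82S) and 3.82 (K86S) among KO mice, and 3.62 (W83S), 3.38 (W89S) and 2.82 (W90S) among WT mice. The highest library was only 1.45 times the lowest, and K79S, below W83S, kept the groups from separating. Together they gave a KO mean of 3.79 ± 0.329 and a WT mean of 3.27 ± 0.412 FPKM (SD, n = 3), a log2 fold change of 0.17 with an interval from -0.15 to 0.48 (limma, adjusted p = 0.604). This interval was the narrowest of the members. When FPKM was rescaled to an equal sum in each library, each KO value of Lrat exceeded each WT value and the log2 fold change was 0.35 (limma, adjusted p = 0.392, and 0.392 to 0.9 over all alternatives), while the median over all rows tested moved from -0.06 to 0.09.

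Aldh1a1 (ENSMUSG00000053279.7, chromosome 19 from 20492715 to 20643465, plus strand) encodes a retinal dehydrogenase that makes retinoic acid. It had 40.7 (K79S), 43.7 (K82S) and 95.6 FPKM (K86S) among KO mice, and 61.0 (W83S), 48.4 (W89S) and 75.2 FPKM (W90S) among WT mice. As for Rbp2, Bco1 and Retsat, K86S was the highest library, and both other KO libraries were below each WT library. The KO mean of 60.0 ± 30.9 and the WT mean of 61.5 ± 13.4 FPKM (SD, n = 3) gave a log2 fold change of -0.12 with an interval from -0.98 to 0.73 (limma, adjusted p = 0.902). Without K86S the groups did not overlap and the log2 fold change was -0.51 (limma, adjusted p = 0.568, and 0.568 to 0.988 over all alternatives). Aldh1a7, a close paralog, had 16.0 to 30.9 FPKM, and reads shared by both genes could have been split between them.

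Retsat (ENSMUSG00000056666.13, chromosome 6 from 72598475 to 72608425, plus strand) encodes retinol saturase, which converts retinol to dihydroretinol. The FPKM was 36.6 (K79S), 16.8 (K82S) and 54.7 (K86S) among KO mice, and 35.4 (W83S), 18.7 (W89S) and 43.5 (W90S) among WT mice. In each genotype 1 library was low, K82S in KO and W89S in WT, and the groups overlapped along nearly their whole range. This made a KO mean of 36.0 ± 19.0 and a WT mean of 32.5 ± 12.6 FPKM (SD, n = 3), with a log2 fold change of 0.07 and an interval from -1.08 to 1.23 (limma, adjusted p = 0.956).

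**Figure D2:**
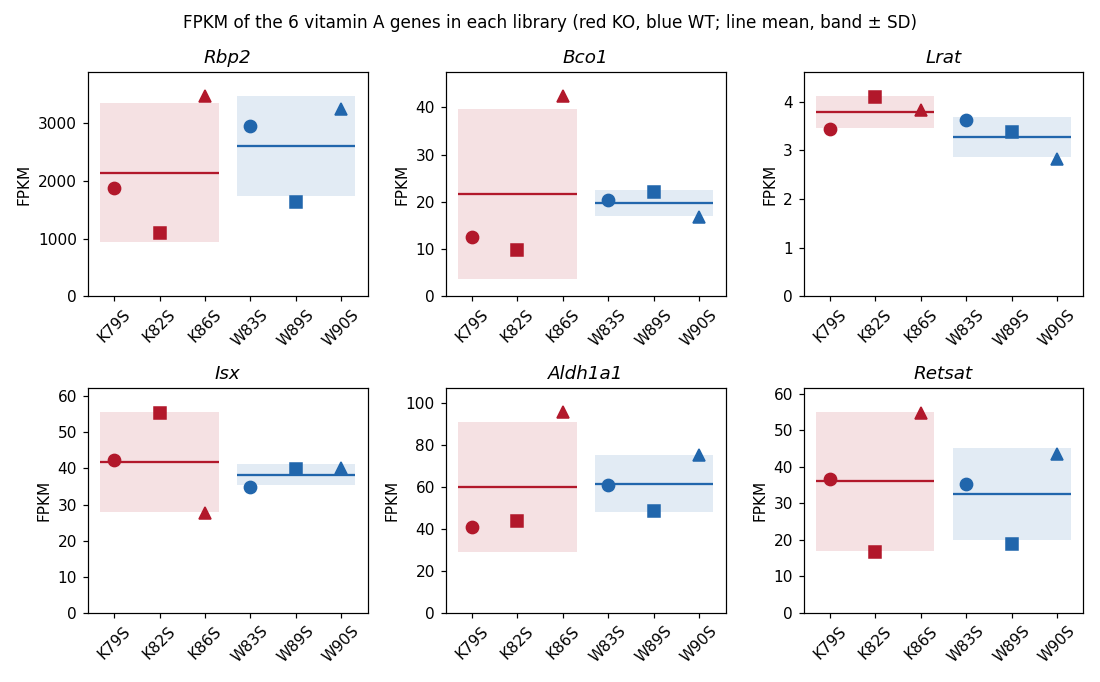
FPKM of each member (vertical axis, starting at 0) in the 6 libraries (horizontal axis), with KO in red and WT in blue, the line marking the mean and the band ± SD of 3 libraries. KO and WT overlap for all 6 genes, and K86S is the highest KO library for Rbp2, Bco1, Aldh1a1 and Retsat and the lowest for Isx.

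None of the 6 members passed the thresholds between KO and WT (limma, adjusted p under 0.05 together with a change of more than 1.5 times either way), and 0 had an unadjusted p under 0.05. Among all 13089 rows tested, 1 row (0.00764%) passed and 12.5% had an unadjusted p under 0.05, and without K82S the number of rows that passed was 1184, with no member among them. For 0 of the 6 did the KO and WT libraries lie apart without overlap, where 17.2% of all rows did. Log2 fold changes were above 0 for 3 members and below 0 for 3, with a median of -0.03, beside -0.06 over all rows. The intervals are wide for most members. Those of Rbp2, Bco1 and Retsat reach past a 2-fold difference in at least 1 direction, so differences of that size could not be seen or dismissed with 3 mice per genotype. An exact two-sided permutation test of 3 against 3 libraries cannot go below p = 0.1, and it gave 0.2 for Lrat and 0.7 to 0.9 for the other members. Without W83S, the library with gastric transcripts, the log2 fold changes lay between -0.26 (Rbp2) and 0.22 (Lrat), and without K79S between -0.36 (Rbp2) and 0.22 (Lrat), and again none passed (limma, adjusted p of 0.692 or more). The residual SD of Rbp2, Bco1 and Retsat stood at the 93.5, 94.8 and 94.1 percentile of all rows tested, whereas that of Lrat stood at the 13.5 percentile.

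In mean level over the 6 libraries the members followed the order Rbp2 (2377 FPKM), Aldh1a1 (60.8), Isx (40.0), Retsat (34.3), Bco1 (20.7) and Lrat (3.53). Rbp2 was above Aldh1a1, and Bco1 above Lrat, in 6 of 6 libraries, with mean log2 ratios of 5.24 ± 0.35 and 2.40 ± 0.75 (SD, n = 6). For both the exact two-sided sign-flip permutation test gave p = 0.0312, the smallest that 6 libraries allow, and p = 0.0781 after Benjamini-Hochberg adjustment over the 5 neighbouring pairs. Retsat was above Bco1 in 5 of 6 libraries (exact sign-flip permutation test, p = 0.0625, adjusted 0.104). Aldh1a1 was above Isx in 4 of 6 libraries (exact sign-flip permutation test, p = 0.188). Isx was above Retsat in 3 of 6 libraries (exact sign-flip permutation test, p = 0.438). The mean log2 ratios of these pairs, 0.56 ± 0.77 and 0.32 ± 0.96 (SD, n = 6), were smaller than their SD. The neighbours were set by mean levels in these same libraries, so the p-values of the 5 pairs cannot decide the order. An adjusted p under 0.0781 was out of reach with only Rbp2 over Aldh1a1 and Bco1 over Lrat at the smallest p. The esterifying enzyme was thus listed at a small part of the level of the retinol carrier in each library, with an Rbp2 to Lrat ratio between 267 (K82S) and 1152 (W90S).

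Rbp2 and Retsat were low in the same libraries. Their Pearson correlation over the 6 libraries was 0.91 (exact permutation test, p = 0.00556) with Spearman's rho of 0.94 (exact permutation test, p = 0.0167), and adjusted over 15 pairs p = 0.0625 and p = 0.125 (exact permutation tests). Without K82S and W89S, the farthest from the median of Retsat, r was 0.65. Although each gene overlapped between the genotypes, their ratio did not: Rbp2 stood at 51.2, 65.4 and 63.4 times Retsat in K79S, K82S and K86S, and at 83.6, 86.9 and 74.7 times in W83S, W89S and W90S. All KO ratios lay below all WT ratios, with a mean log2 difference of -0.45, KO minus WT (exact permutation test, p = 0.1, the smallest possible, and p = 0.964 adjusted over 15 pairs). It was the only pair among 15 that separated in either direction. Of all rows tested 1.55% had a ratio to Rbp2 that was, like that of Retsat, higher in each KO than in each WT library. That share covers this direction alone, and the opposite direction was not counted. Beside this pair and Bco1 with Isx, the lowest unadjusted p among the 15 pairs was 0.0306 (exact permutation tests), for Rbp2 with Aldh1a1 (r = 0.85) and for Rbp2 with Isx (r = -0.85).

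The low libraries of Rbp2 and Retsat were those with low proximal and high distal markers. On the log2(FPKM + 1) scale Rbp2 deviated from its mean by -1.001 in K82S and by -0.43 in W89S, and Retsat deviated by -0.87 and -0.72. Of the 6 proximal markers, Gata4, Fabp1, Lct and Adh6a were below their own mean in both libraries, Cybrd1 was as well but reached only W83S at 6.05 FPKM, and Slc40a1 was above its mean in K82S. Of the 4 placed distal markers, Nr1h4, Osr2 and Guca2a were above their mean in both, and Muc13 in K82S alone. Fabp6 and Slc10a2, the defining ileal genes of the list, were not analysed here. The part of position along the intestine in the spread of Rbp2 and Retsat was not tested. Without K82S and W89S together, a choice made after the values were seen, the log2 fold changes of the members lay between -0.28 (Rbp2) and 0.31 (Bco1), and none passed (limma, adjusted p of 0.648 or more).

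**Figure D3:**
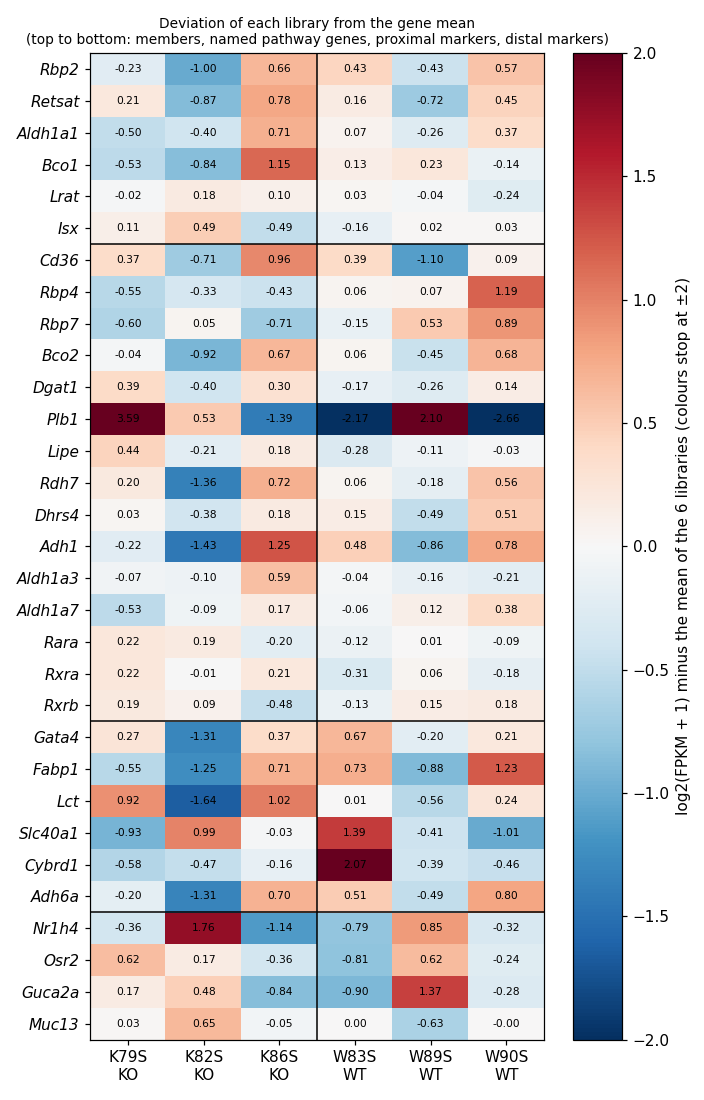
Deviation of log2(FPKM + 1) in each library (columns, KO left of the line and WT right) from the mean of the 6 libraries, for the members, the named pathway genes and the placed proximal and distal markers (rows, top to bottom); the colour scale stops at ±2. Rbp2 (-1.001) and Retsat (-0.87) are lowest in K82S, as are Adh1 (-1.43), Lct (-1.64) and Fabp1 (-1.25), while Nr1h4 is highest there (1.76).

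Other genes of the pathway were taken from a list ordered by role. Of its 43 genes 28 could be placed on a row and 25 passed the filter on low values. None of the 25 passed the thresholds in either direction. An unadjusted p under 0.05 was found for 4 of the 25 (limma), as for 12.5% of all rows tested. In 0 of them was each KO library above each WT library, as 5.9% of all rows were, and in 3 was each KO library below each WT library, as 11.3% of all rows were. Genes of the list could be placed only with W83S of at least 0.954 FPKM, a limit not set for all rows. The median log2 fold change of the 25 was -0.12, beside -0.06 over all rows.

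Of the uptake and binding proteins 5 of 9 were placed and 4 tested. Cd36, a fatty acid and carotenoid receptor, had 18.1 (K79S), 8.05 (K82S) and 27.7 FPKM (K86S) among KO mice, and 18.3 (W83S), 5.88 (W89S) and 14.8 FPKM (W90S) among WT mice, and was thus low in the same libraries as Rbp2. Rbp4, the plasma carrier of retinol, had 1.19, 1.54 and 1.37 FPKM in the KO libraries and 2.34, 2.36 and 6.28 FPKM in the WT libraries. Its groups did not overlap, and the log2 fold change was -0.88 (standard error 0.32, unadjusted p = 0.0286, adjusted p = 0.393 from limma). Rbp7, a retinoid-binding protein of capillary endothelium and fat, had 5.87, 9.83 and 5.36 FPKM in KO and 8.41, 14.0 and 18.3 FPKM in WT, which gave a log2 fold change of -0.84 (unadjusted p = 0.0357, adjusted p = 0.393 from limma). None of the 4 endothelial markers could be placed, so the vessel content of the libraries was not analysed here. Scarb1, the carotenoid transporter gene that ISX represses, was near the floor. It had 0.376 (K79S), 0.432 (K82S) and 1.66 FPKM (K86S) among KO mice, and 2.54 (W83S), 0.20 (W89S) and 0.921 FPKM (W90S) among WT mice. Its lowest library was thus W89S, not K82S, where Isx was highest, and a relation to Isx was not tested.

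Bco2, the carotenoid oxygenase of mitochondria, had 36.9, 19.6 and 60.9 FPKM in the KO libraries and 39.6, 27.4 and 61.1 FPKM in the WT libraries (log2 fold change -0.19, adjusted p = 0.881 from limma). Its mean level was higher than that of Bco1 in both genotypes, with a KO mean of 39.1 ± 20.7 and a WT mean of 42.7 ± 17.1 FPKM (SD, n = 3). It was lowest in K82S and W89S, like Rbp2 and Retsat.

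The 3 genes of retinyl ester synthesis and hydrolysis were all tested, and their log2 fold changes were all above 0 without passing. Dgat1, an acyltransferase that can also esterify retinol, had a KO mean of 194 ± 52.7 and a WT mean of 166 ± 25.02 FPKM (SD, n = 3), far above Lrat. Lipe, hormone-sensitive lipase, had a KO mean of 24.7 ± 5.64 and a WT mean of 19.9 ± 1.86 FPKM (log2 fold change 0.28, adjusted p = 0.563 from limma). Plb1, a brush border phospholipase that also hydrolyses retinyl esters, had the largest residual SD of the 25 genes tested. It had 152 (K79S), 17.3 (K82S) and 3.83 FPKM (K86S) among KO mice, and 1.81 (W83S), 53.4 (W89S) and 1.01 FPKM (W90S) among WT mice. High and low libraries thus occurred in both genotypes, and the log2 fold change of 1.82 had an interval from -2.09 to 5.72 (limma, adjusted p = 0.652).

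Of the retinol and retinal oxidoreductases 13 of 17 were placed and 12 tested, with 3 log2 fold changes above 0 and 9 below. Adh1, the alcohol dehydrogenase that oxidises retinol when it is abundant, was the highest, with 142 (K79S), 61.0 (K82S) and 396 FPKM (K86S) among KO mice, and 232 (W83S), 90.9 (W89S) and 285 FPKM (W90S) among WT mice. Its low libraries were again K82S and W89S, and K86S was the highest. Rdh7, a retinol dehydrogenase, ranged from 17.2 FPKM (K82S) to 75.8 FPKM (K86S), and Dhrs4, a retinal reductase, from 29.7 FPKM (W89S) to 60.4 FPKM (W90S). Adh5 and Rdh13, named after their values were seen, were the members of this role with an unadjusted p under 0.05, and in both each KO value was under each WT value. Adh5, the glutathione-dependent formaldehyde dehydrogenase, had a KO mean of 7.20 ± 1.39 and a WT mean of 10.4 ± 1.28 FPKM (SD, n = 3), and Rdh13, a mitochondrial dehydrogenase, had a KO mean of 1.59 ± 0.136 and a WT mean of 2.79 ± 0.959 FPKM. Neither passed after adjustment (adjusted p = 0.393 for both, limma). The 3 placed crypt and cycling markers also summed lower in each KO library (7.18 to 30.8 FPKM) than in each WT library (31.9 to 75.5 FPKM). Of these only Olfm4 separated by itself (3.98 to 20.1 FPKM in KO, 24.8 to 61.3 FPKM in WT). Mki67 and Top2a overlapped, with 5.24 and 5.45 FPKM in K82S and 3.82 and 3.33 FPKM in W83S. The part of these markers in the differences of Adh5, Rdh13 and Rbp4 was not tested. Adh7 had 12.2 FPKM in W83S, the library with gastric transcripts, and at most 0.183 FPKM elsewhere.

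Of the genes of retinoic acid synthesis and breakdown 2 of 7 were placed, Aldh1a7 and Aldh1a3. Aldh1a7 had a KO mean of 21.5 ± 5.36 and a WT mean of 26.4 ± 4.22 FPKM (SD, n = 3), and Aldh1a3, a further retinal dehydrogenase, had a KO mean of 1.38 ± 0.693 and a WT mean of 0.915 ± 0.123 FPKM. Neither passed (adjusted p = 0.584 and 0.609 from limma). The Cyp26 genes, whose enzymes degrade retinoic acid, were not analysed here.

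Of the retinoid receptors 4 of 6 were placed and 3 tested. Rxra, the shared partner of many nuclear receptors, had a KO mean of 35.3 ± 3.24 and a WT mean of 28.9 ± 3.92 FPKM (SD, n = 3, log2 fold change 0.28, adjusted p = 0.471 from limma). Rara had a KO mean of 13.1 ± 2.18 and a WT mean of 11.7 ± 0.577 FPKM, and Rxrb had a KO mean of 7.14 ± 1.90 and a WT mean of 7.78 ± 1.01 FPKM. The 3 tested receptors had smaller residual SDs than Rbp2 or Adh1, and in both Rxra and Rara the genotypes overlapped.

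**Figure D4:**
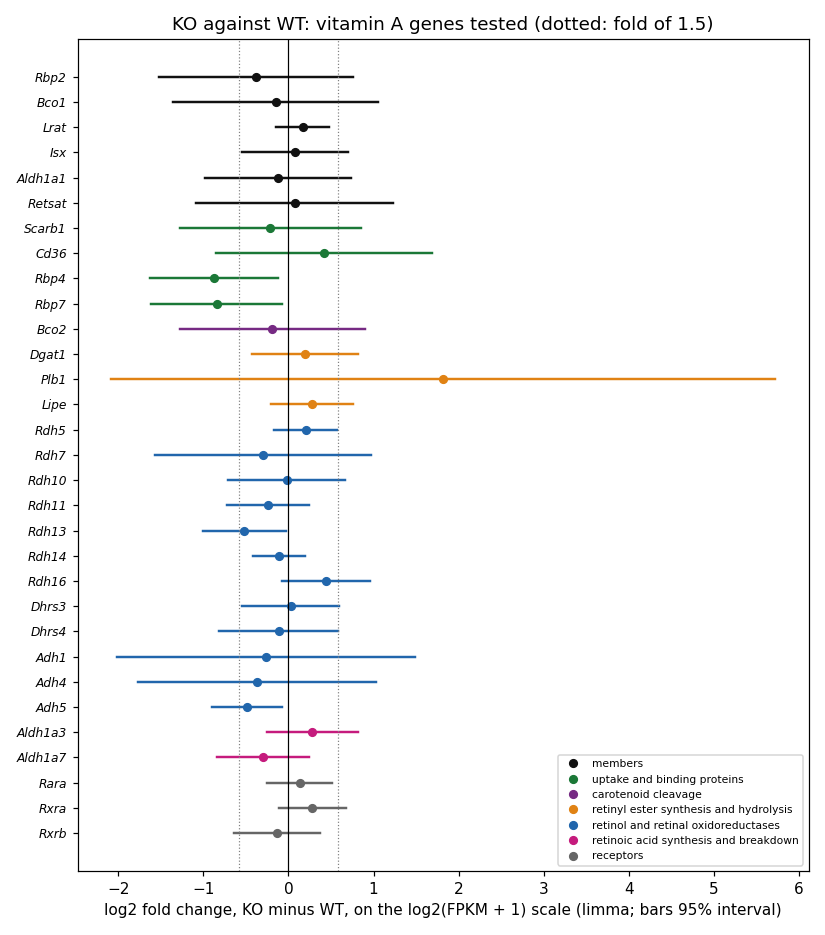
Log2 fold change of KO minus WT on the log2(FPKM + 1) scale (horizontal axis) with its 95% interval from limma, for the 6 members and the 25 pathway genes tested (vertical axis, coloured by role); dotted lines mark a fold of 1.5. The intervals of all members cross 0, that of Lrat (-0.15 to 0.48) is the narrowest of them, and those of Rbp4, Rbp7, Rdh13 and Adh5 lie below 0 before adjustment.

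The genes whose pattern was most like that of each member were sought among 12090 placed genes that passed the filter on low values, by Pearson's r of log2(FPKM + 1) over the 6 libraries. Rbp2 was most like Aadac, a lipid deacetylase (r = 0.996), and Kcnj2 (0.995), and Retsat most like Sec22c (0.999) and Gnal (0.998). Aldh1a1 came closest to Nr1i2, the xenobiotic receptor PXR (0.992), and Rac1 (0.988). Bco1 came closest to Rassf6 (0.994) and Rybp (0.983), Isx to Ripk3 (0.995) and Def6 (0.989), and Lrat to Gm44126 (0.993) and Strn3 (0.986). With 6 points many genes reach such values: 284 genes had r above 0.9 with Retsat, 253 with Rbp2, 146 with Isx, 89 with Aldh1a1, 43 with Bco1 and 31 with Lrat. Aadac had 19.4 (K79S), 8.65 (K82S) and 49.4 FPKM (K86S) among KO mice, and 40.5 (W83S), 18.4 (W89S) and 49.6 FPKM (W90S) among WT mice, which is the order of Rbp2 but for the highest library.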

How the data were processed

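Gene expression of the middle small intestinal mucosa was measured in 6 mice. Single-end reads of 50 bp were trimmed by the authors (trim-galore), aligned to the mm10 genome (HISAT2) and summarised per gene (StringTie), and the deposited FPKM values are divided by gene length and mapped fragments. Tool versions and the handling of strand are not given in the sources used here. Whether the normalization with edgeR that the methods mention was applied to these values is not stated.

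Identifiers were ranked by the K79S value beside them and rows by W83S, and each identifier was given the row of its own rank, shifted by offsets of at most 3 that hold over stretches of the ranking. In all, 12402 identifiers were placed (W83S of at least 0.954 FPKM) and the others were not analysed here. The offsets came from earlier work on these data and were checked by the printed decimals, which reach at most 6 for a gene with 1 transcript in GENCODE M21. This held for 99.7% of 3649 such genes placed and for 5.8% of 8748 genes with several transcripts, against 45.9% and 41% as deposited. Within 100 ranks of each member, agreement was 90.9% (Rbp2) to 98% (Lrat), and at most 65.2% at offsets up to 5 away. From 1000 FPKM up values have no more than 6 decimals, so the row of Rbp2 rests on its neighbours.

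Rows were kept unless more than 4 libraries had FPKM under 1, and log2(FPKM + 1) of the remaining 13089 rows was fitted with limma 3.58.1 (trend, no covariate, Benjamini-Hochberg adjustment over all rows) in R 4.3.3. Tests of single values were exact permutation tests in scipy 1.17.1. The fit was tested on simulated data. There were 0 unmapped columns of per-sample values. Samples were grouped by their genotype labels, each library is a separate mouse, and precision comes from the spread of 3 mice alone. Alternatives were other pseudocounts, filters, scalings, weights and leaving out each library. Named were the members, the 3 most abundant tested genes of each pathway role, and the 2 genes most correlated with each member. Members and lists were chosen with earlier results of these data known. Sequences are from RefSeq (GRCm38.p6), where all 6 members matched by symbol.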

Additional observations from a re-analysis of the deposited data

How the results depend on the processing

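No member passed the thresholds under any alternative run (adjusted p from limma of 0.392 or more). No other pathway gene passed either, under the same alternatives except centring on enterocyte markers, which was not read out for them. Over all rows 1 passed, against 0 with pseudocounts of 0.1 and 0.01 (1636 and 1619 unadjusted p under 0.05), 2 with array weights, 3 without K82S and W89S together, and 0 to 1184 when 1 library was left out, the 1184 without K82S. Of 96 alternative values for the members 77 kept their direction and 19 did not. Bco1 turned to 0.019 with array weights and with FPKM rescaled to an equal sum, and to 0.31 without K82S and W89S. Isx turned to -0.034 with array weights, -0.20 when centred on enterocyte markers and -0.12 without K82S and W89S. The same centring turned Lrat to -0.11 and Retsat to -0.20, and rescaling turned Aldh1a1 to 0.057. Centring kept the direction of Rbp2 (-0.65), Bco1 (-0.42) and Aldh1a1 (-0.40), and moved the median over all rows tested to -0.33. Leaving out 1 library, the log2 fold change ranged from -0.80 to 0.027 for Rbp2, -0.76 to 0.23 for Bco1, -0.15 to 0.34 for Isx, -0.51 to 0.094 for Aldh1a1, -0.30 to 0.53 for Retsat and 0.09 to 0.22 for Lrat. The number of members without overlap was 0, with 1 (Lrat) after rescaling or median-ratio scaling, and 0 to 3 with 1 library left out, the 3 being Bco1, Isx and Aldh1a1 without K86S. Of 225 values for the 15 named pathway genes 12 changed direction: Rdh7 (0.14) without K82S and W89S, Dhrs4 (0.067) and Rxrb (0.032) on rescaling, and, with 1 library left out, Cd36 (-0.032 to 0.87), Bco2 (-0.57 to 0.22), Adh1 (-0.96 to 0.38), Rdh7 (-0.73 to 0.31), Dhrs4 (-0.39 to 0.11) and Rxrb (-0.26 to 0.076). The cause was not tested. The study describes its tissue as matched pairs of KO and WT mice. No paired analysis was possible because neither its text nor the labels say which KO mouse was matched with which WT mouse. Depth could not be weighed gene by gene, since FPKM keeps no read counts. The mapped reads per library that the paper lists were not used in any fit here.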
